A study of Mus musculus with 24 samples.

Results

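Secreted proteins of connective tissue other than collagens were followed through the mRNA of 10 genes, Postn, Thbs2, Lum, Aspn, Eln, Fbn1, Mfap4, Lox, Loxl2 and Lrrc17. These 10 genes of the 36333 in the table were chosen by their values in these same mice, as scar matrix genes that differed between drug and vehicle groups. All 10 passed the filter on low levels, which required 0.5 TPM on average, Lox and Lrrc17 through their levels after injury. Because of that choice, the drug comparisons with vehicle are described without a test. Tests are given for vehicle versus sham, which shares its vehicle mice with that choice, and between the drug groups, which share their drug mice with it. TPM, the unit of all levels here, is a transcript level scaled by gene length and by the total of the library.

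RNA from the brain of 24 male C57BL6N mice, aged 12 to 16 weeks per the labels, was sequenced at 5 days post injury (dpi), with 1 library per mouse. Traumatic brain injury (TBI) was made by controlled cortical impact (CCI) in 20 mice, which received vehicle, PLX3397, Anakinra or PLX3397+Anakinra (n = 5 each). The 4 sham mice, also given vehicle, had the skin incision without opening of the skull, so the impact and the craniotomy cannot be told apart, and the bone flap was put back in mice with TBI. PLX3397, which blocks the receptor CSF1R on which microglia and macrophages depend, was given at 290 mg/kg of chow from 90 min after CCI. Anakinra, which blocks the interleukin-1 receptor IL1R1, was injected under the skin 4 times at 100 mg/kg. The methods name another substrain, C57BL/6JRj, and a tissue block with striatum, hippocampus and thalamus beside the labelled cortex. The striatal gene Ppp1r1b was measured at 513 to 916 TPM in all libraries, and the cortical gene Neurod6 at 39.6 to 110.4 TPM.

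After injury to the brain, fibroblasts of meninges and vessel walls can multiply and lay down a fibrotic scar. Such a scar is built from collagen fibrils, whose thickness is set by small leucine-rich proteoglycans such as lumican (Lum) and asporin (Aspn), and is organized by the matricellular proteins periostin (Postn) and thrombospondin-2 (Thbs2). Elastic fibers hold a core of elastin (Eln) on microfibrils of fibrillin-1 (Fbn1), to which Mfap4 binds. The lysyl oxidases Lox and Loxl2 oxidize lysine side chains of collagen and elastin, the step that allows chains to crosslink. Lrrc17 is a secreted leucine-rich repeat protein best known as a brake on osteoclast formation.

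In RefSeq on GRCm38.p6, Postn spans chr3:54359267-54391041, Thbs2 chr17:14665500-14694262, Lum chr10:97565501-97572703 and Aspn chr13:49544443-49567565. Eln spans chr5:134702595-134747368, Fbn1 chr2:125300594-125506485 and Mfap4 chr11:61485431-61488708. Loxl2 spans chr14:69608692-69695834 and Lrrc17 chr5:21543527-21575911.

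RefSeq promoters were matched for 5 of the 10 genes (Postn, Thbs2, Aspn, Fbn1 and Lrrc17). The 250 bases before the start site are shown for Postn and Aspn, because over the 20 mice with TBI Postn followed the other genes most closely from mouse to mouse and Aspn least closely. With vehicle mice J17B and J20B, described further on, dropped after the group means were taken, Loxl2 was the least close. The window of Fbn1 belongs to a start site inside the gene span given above, overlaps that span in part and is not shown. The Postn window that is shown lies wholly within the gene span of Postn. Capitals mark matches in either orientation to the TATA box (TATAAA), the CCAAT box (spelled as its name), the GC box that Sp1 can bind (GGGCGG) or the AP-1 motif (TGANTCA).
Postn (the farther downstream of 2 start sites, plus strand, chr3:54360857-54361106): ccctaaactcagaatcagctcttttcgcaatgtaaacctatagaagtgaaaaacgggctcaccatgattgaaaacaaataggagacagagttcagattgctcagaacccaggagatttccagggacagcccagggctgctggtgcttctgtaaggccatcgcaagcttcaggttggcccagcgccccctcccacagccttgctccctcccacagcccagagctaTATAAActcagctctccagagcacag
Aspn (plus strand, chr13:49544193-49544442): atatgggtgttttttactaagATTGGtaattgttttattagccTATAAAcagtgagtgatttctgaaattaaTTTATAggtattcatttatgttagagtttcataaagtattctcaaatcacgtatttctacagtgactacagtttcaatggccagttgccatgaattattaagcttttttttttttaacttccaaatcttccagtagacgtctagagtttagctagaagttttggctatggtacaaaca
The Postn sequence holds a TATA box at position -26 from the start site, whereas both TATA matches of Aspn lie farther away, at -207 and -178. The window of the other Postn start site (chr3:54359017-54359266), not shown, held none of these motifs, and G and C made up 40.4% of it. G and C made up 52.0% of the Postn sequence shown and 30.0% of the Aspn sequence, beside a median of 52.4% over 32851 promoters. Over the 6 promoters of the 5 genes, the TATA letters were found in 4, the CCAAT box in 3 and the GC box in 1 (Fbn1). Over all promoters of this length, 12.4% held the TATA letters and 33.8% the CCAAT box. The GC box was held by 32.7% and the AP-1 motif by 6.75%. No AP-1 match was found in the 6 windows, which says only that these letters are absent there.

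In sham brain the genes were expressed at unequal levels. Mean levels ran from 9.03 ± 1.01 TPM for Eln (SD, n = 4) over 4.88 ± 1.09 for Lum, 4.76 ± 0.408 for Thbs2, 3.62 ± 0.305 for Fbn1, 3.55 ± 0.838 for Postn and 2.94 ± 0.591 for Mfap4 to 1.58 ± 0.328 for Aspn. Loxl2, Lox and Lrrc17 were at 0.5902 ± 0.0671, 0.382 ± 0.108 and 0.134 ± 0.0666 TPM. Lum and Thbs2, Fbn1 and Postn, and Postn and Mfap4 were closer to each other than the spread between sham mice. Eln was the highest of the 10 genes in all 5 groups. Aspn was the lowest in each group with TBI.

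At 5 dpi the vehicle mice did not form a single cloud. Mice J01B, J18B and J19B had much higher levels than sham in most of these genes, whereas J17B and J20B were within or closer to the sham range. In bulk tissue fewer fibroblasts and less RNA per fibroblast cannot be told apart. In each gene J17B and J20B were the 2 lowest vehicle mice (10 of 10 genes), which held for 11.9% of the 17231 genes that had 5 different vehicle values. The lowest of the other 3 mice was above 2 times the higher of J17B and J20B in 7 of the 10 genes, and in 0.365% of the 17267 genes tested. The pair was picked by its values in these genes, and the genes by vehicle and drug values. These counts are therefore descriptions and carry no test. J17B did not exceed the highest sham mouse in 5 genes and J20B in 3 genes, and the other 3 vehicle mice exceeded it in all 10. Results that rest on vehicle mice are therefore given with all 5 mice and without J17B and J20B, a pair left out after their values were seen. Vehicle values are listed in the order J01B, J17B, J18B, J19B and J20B, and sham values in the order J07, J08, J15 and J16.

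**Figure D1:**
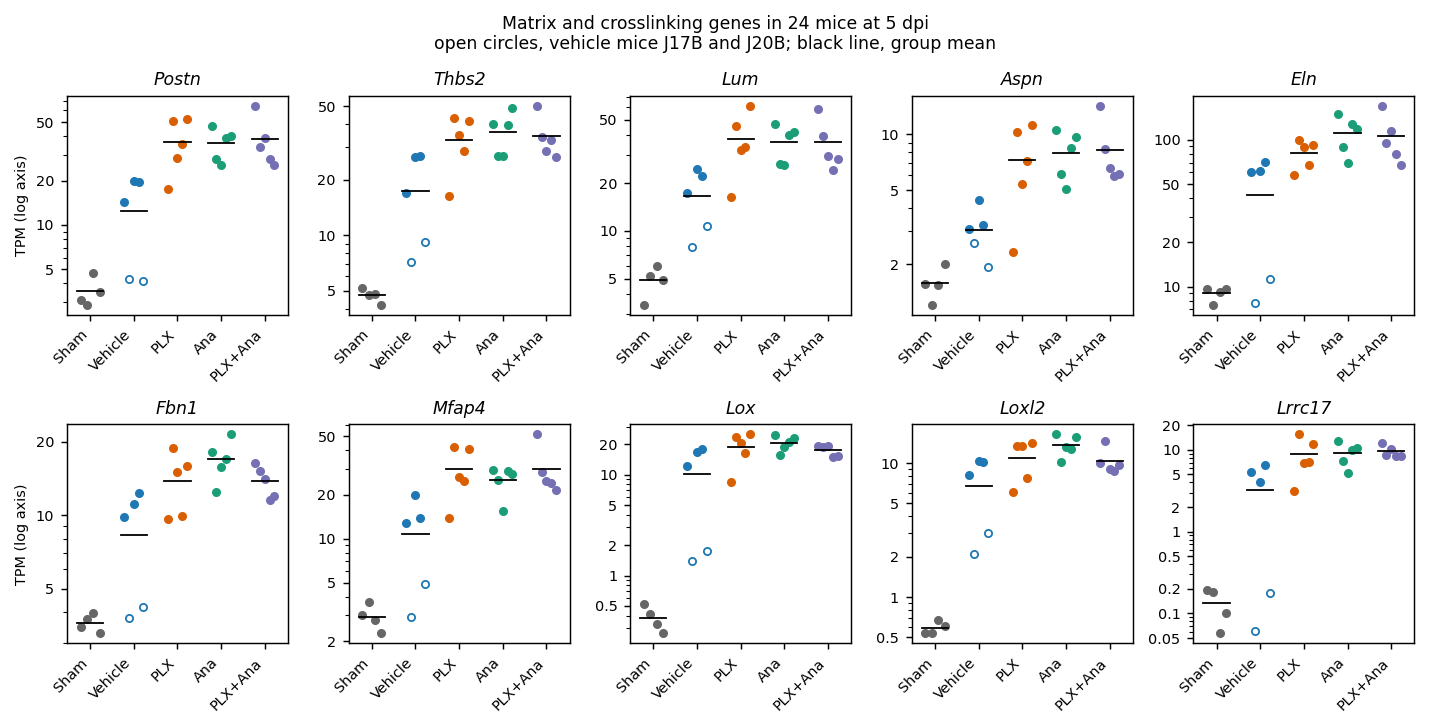
Level of each gene (TPM, log axis) in 24 mice by group, with 1 point per mouse and a black line at the group mean. PLX stands for PLX3397 and Ana for Anakinra, and the open circles are vehicle mice J17B and J20B. These 2 mice were the lowest vehicle mice in each of the 10 panels.

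The matricellular genes Postn and Thbs2 were 3.498 and 3.65 times as high in vehicle as in sham mice. Postn was at 3.09, 2.87, 4.75 and 3.49 TPM in sham and 14.2, 4.295, 19.8, 19.6 and 4.19 TPM in vehicle mice. J17B and J20B lie within the sham range and the other 3 vehicle mice above it. Its log2 fold change was 1.32 ± 0.38 (SE, limma, adjusted p = 0.00444) and 2.06 ± 0.304 without J17B and J20B. Thbs2 was at 5.21, 4.77, 4.84 and 4.22 TPM in sham and 16.9, 7.17, 26.6, 27.1 and 9.18 TPM in vehicle mice. All vehicle values of Thbs2 were above sham, including those of J17B and J20B, and its log2 fold change was 1.505 ± 0.31 (limma, adjusted p = 0.000184).

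Of the proteoglycans, Lum rose to 3.396 times its sham mean and Aspn, the least induced of the 10, did not pass the test. Lum was at 3.42, 5.17, 6.03 and 4.88 TPM in sham and 17.2, 7.95, 24.6, 22.2 and 10.8 TPM in vehicle mice, without overlap (limma, adjusted p = 0.000314). Aspn was at 1.57, 1.21, 1.54 and 2.01 TPM in sham and 3.099, 2.59, 4.39, 3.23 and 1.94 TPM in vehicle mice. Its lowest vehicle value, in J20B, was below the highest sham value. The log2 fold change of Aspn was 0.63 ± 0.29 (limma, adjusted p = 0.0683) with all vehicle mice and 0.82 ± 0.33 (adjusted p = 0.0392) without the pair.

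Elastic fiber genes rose together. Eln, the elastin precursor, was at 9.68, 7.56, 9.21 and 9.67 TPM in sham and 60.3, 7.79, 61.05, 70.5 and 11.3 TPM in vehicle mice. J17B was inside the sham range and J20B just above it, while the other vehicle mice were at 60.3 TPM or more. Its log2 fold change was 1.64 ± 0.45 (limma, adjusted p = 0.00333), and 2.697 ± 0.25 without the pair. Fbn1 was at 3.48, 3.75, 3.97 and 3.28 TPM in sham and 9.82, 3.79, 11.1, 12.4 and 4.2 TPM in vehicle mice, a smaller rise than that of Eln (log2 fold change 0.88 ± 0.24, adjusted p = 0.00373). Mfap4 was at 3.004, 3.69, 2.799 and 2.26 TPM in sham and 12.7, 2.94, 19.7, 13.8 and 4.92 TPM in vehicle mice (log2 fold change 1.35 ± 0.37, adjusted p = 0.00318). In Fbn1 and Mfap4, as in Eln, J17B overlapped with sham and J20B was just above it.

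The crosslinking enzymes rose from near 0. Lox was at 0.518, 0.413, 0.3298 and 0.268 TPM in sham and 12.3, 1.398, 16.8, 18.2 and 1.75 TPM in vehicle mice. J17B and J20B were far below the other vehicle mice but above every sham mouse, unlike in Postn or Eln. The ratio of means was 26.4, and 41.3 without the pair. Loxl2 was at 0.536, 0.537, 0.675 and 0.613 TPM in sham and 8.16, 2.09, 10.4, 10.2 and 2.996 TPM in vehicle mice, a ratio of 11.5 (log2 fold change 2.096 ± 0.299, adjusted p = 1.93e-06). Lrrc17 was at 0.194, 0.185, 0.05698 and 0.1002 TPM in sham and 5.39, 0.0616, 4.08, 6.54 and 0.176 TPM in vehicle mice. For Lrrc17 J17B and J20B were within the sham range. Log2 values were computed as log2(TPM + 1), which understates the change of such low genes. Lox and Lrrc17 were below the filter in sham and passed it through the injured groups, so they had to differ, and no test is given for them.

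Of the other 8 genes, 7 passed an adjusted p of 0.05 as higher in vehicle than in sham, and 26.6% of all 17267 genes tested did so. Every vehicle mouse was above every sham mouse in 3 of these 8 genes (Thbs2, Lum and Loxl2) and in 21.7% of all genes. The median log2 fold change was 1.42 over the 8 genes and -0.013 over all genes. Without J17B and J20B the test was passed by 8 of 8 genes and by 25.6% of all genes, with a median of 2.05 over the 8 genes.

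**Figure D2:**
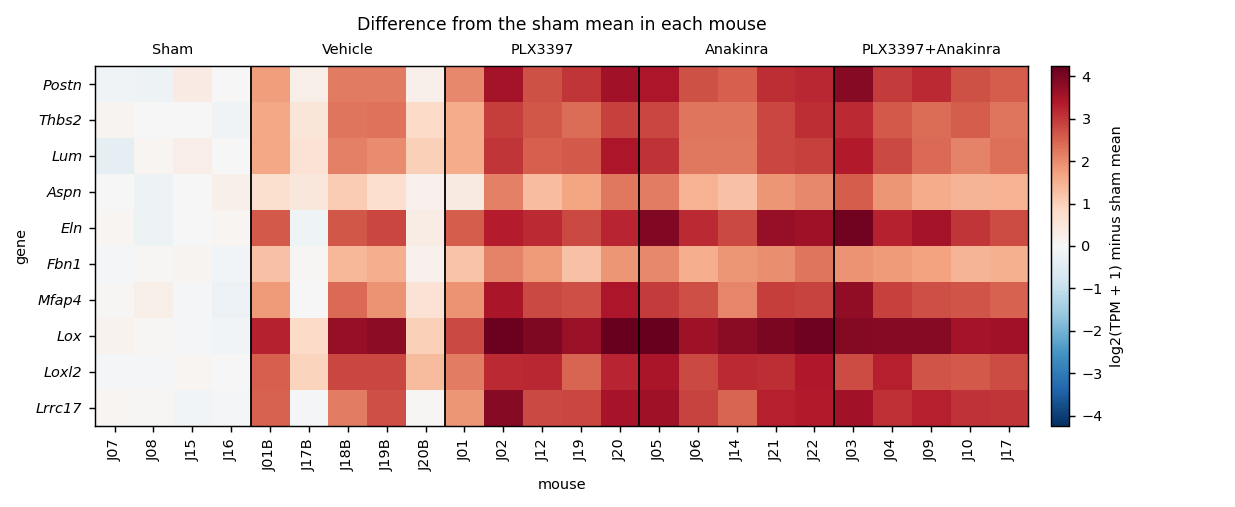
Difference of log2(TPM + 1) from the sham mean for the 10 genes (rows) in 24 mice (columns), with blue for lower and red for higher levels. J17B and J20B are the palest columns among the mice with TBI, and Lox has the deepest red.

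The drug groups were all higher than sham in these genes, and their drug effect can be read only against the uneven vehicle group. In each drug group every mouse was above every sham mouse in 10 of 10 genes. The same was true of 18.7% of all genes tested for PLX3397, 21.3% for Anakinra and 16.9% for PLX3397+Anakinra. The choice of the genes used these drug mice, and Lox and Lrrc17 passed the filter through the injured groups. The count of genes above sham therefore carries no test. Values are listed in the order J01, J02, J12, J19 and J20 for PLX3397, J05, J06, J14, J21 and J22 for Anakinra, and J03, J04, J09, J10 and J17 for PLX3397+Anakinra. Animal codes with and without a B name different mice.

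Postn was at 17.5, 50.8, 28.3, 35.7 and 52.2 TPM with PLX3397, 47.1, 28.2, 25.4, 38.9 and 39.9 TPM with Anakinra and 64.8, 33.9, 39.03, 28.3 and 25.6 TPM with PLX3397+Anakinra. With Anakinra or both drugs each mouse was above all vehicle mice, and with PLX3397 only J01 was not. The ratio of its mean to vehicle was 2.97, 2.89 and 3.08 in these groups, or 2.06, 2.01 and 2.14 without J17B and J20B. Thbs2 was at 16.3, 43.1, 34.9, 28.9 and 41.5 TPM with PLX3397, 40.2, 26.9, 26.9, 39.6 and 49.04 TPM with Anakinra and 50.6, 34.2, 28.8, 32.9 and 26.5 TPM with PLX3397+Anakinra. Each drug group of Thbs2 overlapped with the highest vehicle mice.

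Lum was at 16.4, 45.98, 32.5, 33.8 and 61.6 TPM with PLX3397, 47.1, 26.6, 26.2, 40.1 and 42.2 TPM with Anakinra and 58.5, 39.8, 29.4, 24.1 and 28.3 TPM with PLX3397+Anakinra. Anakinra mice were all above vehicle, and 1 mouse of each other group was not. Aspn was at 2.31, 10.2, 5.39, 7.13 and 11.2 TPM with PLX3397, 10.5, 6.11, 5.04, 8.39 and 9.66 TPM with Anakinra and 14.2, 8.33, 6.597, 5.93 and 6.09 TPM with PLX3397+Anakinra. Aspn, the gene with the weakest response to injury alone, had all mice of both Anakinra-treated groups above all vehicle mice. Its ratio to vehicle was 2.38, 2.602 and 2.701 with PLX3397, Anakinra and both, and remained above 2 without the pair, at 2.03, 2.22 and 2.304.

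Eln was at 57.8, 100.3, 88.7, 67.8 and 91.8 TPM with PLX3397, 150.5, 88.8, 69.3, 127 and 119 TPM with Anakinra and 171, 95.4, 115, 80.4 and 67.2 TPM with PLX3397+Anakinra. The lowest mice of each drug group were within the range of vehicle. Fbn1 was at 9.64, 18.8, 15.03, 9.87 and 15.8 TPM with PLX3397, 18.1, 12.5, 15.7, 16.95 and 21.4 TPM with Anakinra and 16.4, 15.1, 14.1, 11.5 and 11.97 TPM with PLX3397+Anakinra. Anakinra separated from vehicle in Fbn1, by a narrow margin, and the other groups overlapped with it. Mfap4 was at 13.8, 42.3, 26.4, 24.8 and 40.8 TPM with PLX3397, 29.4, 25.2, 15.4, 28.9 and 27.4 TPM with Anakinra and 51.4, 28.5, 24.9, 23.8 and 21.4 TPM with PLX3397+Anakinra. Here it was the combination that lay wholly above vehicle, and the highest mouse was J03.

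Lox was at 8.52, 23.8, 20.5, 16.4 and 25.1 TPM with PLX3397, 24.7, 15.8, 18.7, 21.2 and 23.02 TPM with Anakinra and 19.5, 18.9, 19.1, 14.99 and 15.5 TPM with PLX3397+Anakinra. Loxl2 was at 6.13, 13.4, 13.5, 7.81 and 14.02 TPM with PLX3397, 16.4, 10.2, 13.2, 12.8 and 15.7 TPM with Anakinra and 9.95, 14.6, 9.09, 8.698 and 9.76 TPM with PLX3397+Anakinra. For both enzymes the drug groups overlapped with vehicle mice J01B, J18B and J19B. The ratios of Lox to vehicle were 1.87, 2.05 and 1.74 with all vehicle mice but 1.195, 1.31 and 1.11 without the pair, and those of Loxl2 went from 1.62, 2.02 and 1.54 to 1.15, 1.43 and 1.09. Lrrc17 was at 3.14, 15.5, 6.92, 7.08 and 11.8 TPM with PLX3397, 12.7, 7.32, 5.26, 10.05 and 10.7 TPM with Anakinra and 12.3, 8.75, 10.3, 8.49 and 8.35 TPM with PLX3397+Anakinra. In Lrrc17 the combination lay wholly above vehicle.

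The study's thresholds for a changed gene (unadjusted p below 0.05, ratio of means above 2, difference above 4 TPM) were applied with the p of limma. By these criteria 5 of 10 genes were higher in the PLX3397 group, 10 in the Anakinra group and 6 in the PLX3397+Anakinra group. The study used its own p, and its list for PLX3397 does not hold Lrrc17, which is among the 5 here. The genes were chosen by calls of this kind, so these counts carry no test. Over all genes tested the criteria were met upward by 0.0869% for PLX3397, 0.162% for Anakinra and 0.0985% for the combination. Without J17B and J20B the counts were 1, 2 and 2 genes, and 0.0290% of all genes in each of the comparisons. Postn met the criteria in all 3 of these, and Aspn in both groups given Anakinra. Each mouse was above each vehicle mouse in 4 genes with Anakinra, 0 with PLX3397 and 4 with the combination, beside 1.14%, 1.98% and 4.09% of all genes. Without the pair these gene counts could not move, because the pair held the lowest vehicle values in each gene. The shares of all genes were then 2.64%, 6.12% and 8.82%. The median log2 fold change over the 10 genes was 1.26 with Anakinra, 1.20 with PLX3397 and 1.19 with both, and 0.66, 0.47 and 0.66 without the pair. The direction was higher with drug for all 10 genes in the 3 comparisons, with or without the pair.

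**Figure D3:**
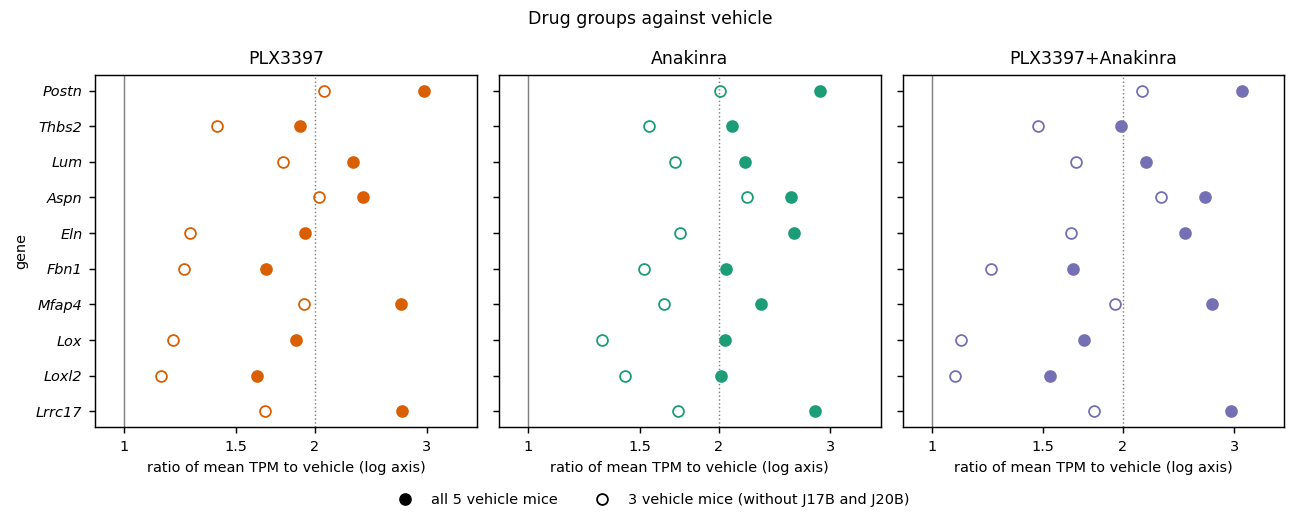
Ratio of the mean TPM of each drug group to the vehicle mean for the 10 genes (log axis), with filled points for all 5 vehicle mice and open points for 3 vehicle mice without J17B and J20B. The solid line marks equal means and the dotted line a ratio of 2. Each open point lies left of its filled point, and Lox and Loxl2 with PLX3397+Anakinra end at 1.11 and 1.09.

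Between the drug groups no difference in these genes was found. Of the 10 genes, 0 passed an adjusted p of 0.05 in limma for PLX3397+Anakinra versus PLX3397, PLX3397+Anakinra versus Anakinra or Anakinra versus PLX3397, and 0 had an unadjusted p below 0.05, beside 6.71%, 27.9% and 20.1% of all genes. The smallest adjusted p of a member was 0.936, 0.427 and 0.509 in these comparisons. In the same tests 0.151%, 12.8% and 6.69% of all genes passed. The 10 genes were chosen by values of these same drug mice, so their tests are not independent of that choice. The intervals are wide, and a miss of the threshold does not show that the drugs acted alike. For Eln the difference of log2(TPM + 1) between the combination and PLX3397 was 0.33, with a 95% confidence interval from -0.55 to 1.204. For Loxl2 the difference between the combination and Anakinra was -0.37, from -0.95 to 0.22. Fbn1 differed by 0.298 between Anakinra and PLX3397, from -0.18 to 0.77. Over the 10 genes and 3 comparisons the bounds of these intervals ran from -1.08 to 1.30.

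**Figure D4:**
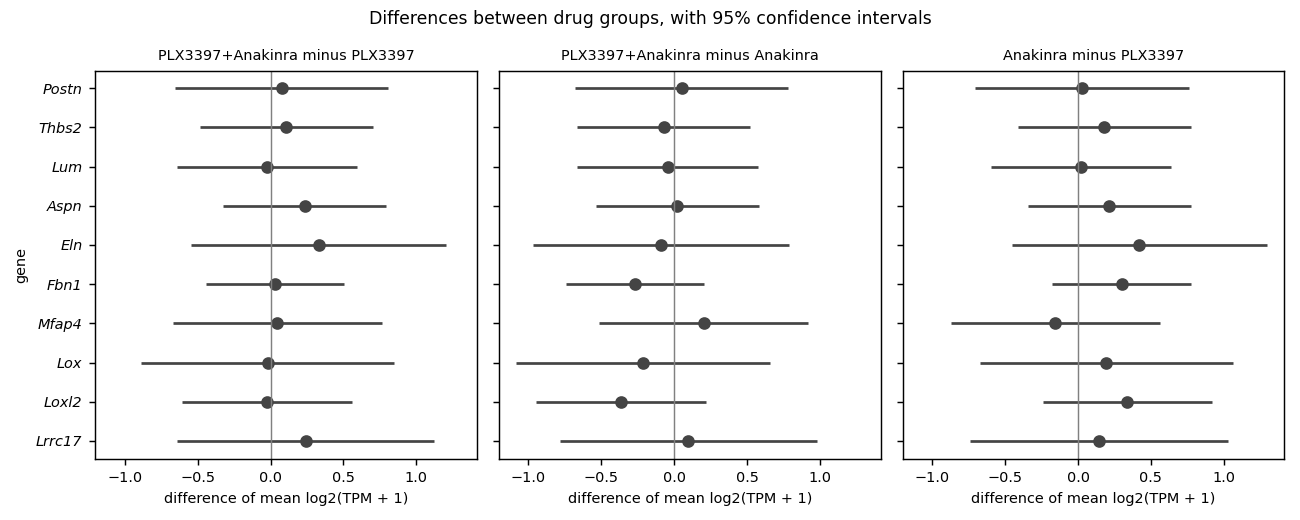
Difference of mean log2(TPM + 1) between drug groups for the 10 genes, with points for the estimate and lines for its 95% confidence interval (limma, n = 5 per group). All intervals include 0, and they reach from -1.08 to 1.30.

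The spread between mice was larger in these genes than in the median gene. The median SD of log2(TPM + 1) over the 10 genes was 0.13 in sham, 0.94 in vehicle, 0.61 with PLX3397, 0.37 with Anakinra and 0.41 with the combination. Over all genes tested the medians of the same groups were 0.10, 0.12, 0.12, 0.11 and 0.11. The high value of the vehicle group rested on J17B and J20B: over the other 3 vehicle mice the median SD of the 10 genes was 0.25 (0.12 to 0.37). This lies below the median of each drug group, but the pair was picked for its low values and the drug groups kept all their mice. The order of the groups is therefore not read as a result. For Thbs2, Lox and Lrrc17 the SD of these 3 mice (0.37, 0.28 and 0.29) was above that of the combination (0.35, 0.17 and 0.21). For Aspn the SD of all 5 vehicle mice, 0.32, was already below the 0.76, 0.39 and 0.47 of the drug groups. The genes also moved together within groups. In J01B, J18B and J19B 10 of 10 genes were above the vehicle mean, and in J17B and J20B none was. With PLX3397, J02 and J20 had all 10 above the group mean and J01 had none. With Anakinra, J05 and J22 had 10 and J14 none, and with PLX3397+Anakinra J03 had 9 while J10 and J17 had none. Added over the 10 genes, J01 held 152 TPM beside 239 to 366 TPM in the other PLX3397 mice. In sham mice, 4 to 6 genes were above the mean.

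This likeness was put in numbers over the 20 mice with TBI as a correlation of deviations from the group mean, given as a description because the mice of a group share its mean. Each of the 10 genes was set against the mean of the other 9. Pearson's r was 0.969 for Postn, 0.963 for Thbs2, 0.954 for Mfap4 and 0.945 for Lrrc17. It was 0.732 for Aspn, the lowest of the 10. With J17B and J20B dropped (18 mice) but still part of the vehicle mean, r was 0.957 for Postn. Loxl2 (0.818) was then lower than Aspn (0.826). The remaining vehicle mice all lay above that mean in each gene, so these r values are not free of the pair.

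The 8 other genes whose deviations were most like the mean of the 10 were Col5a2, Col12a1, Adam12, Bgn, Fstl1, Serpinh1, Kdelr3 and Rcn3. Their r ran from 0.990 for Col5a2, a chain of collagen V, to 0.967 for Rcn3, over 20 mice. It ran from 0.985 to 0.945 with the pair dropped but still part of the vehicle mean. Bgn (biglycan) is a proteoglycan related to lumican, and Serpinh1 is a chaperone of procollagen in the endoplasmic reticulum. Of 15766 genes compared, 66 had an r above 0.9. In vehicle mice Col5a2 ran from 5.44 to 31.3 TPM and Serpinh1 from 45.4 to 161.9 TPM.

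The markers of other cells say what was and was not uneven among vehicle mice. Summed over 10 fibroblast markers, J17B and J20B held 89.2 and 119.8 TPM, the other vehicle mice 558 to 698 TPM and sham mice 55.1 to 64.9 TPM. The drug groups ran from 452 to 1091 TPM with PLX3397, 761 to 1518 TPM with Anakinra and 691 to 1149 TPM with both, so this sum moved with the 10 genes, and every Anakinra mouse was above every vehicle mouse. Most of the sum came from collagens, with vehicle means of 121.9 TPM for Col1a1, 143 TPM for Col1a2 and 102.5 TPM for Col3a1. Over the 5 vehicle mice Pi16 ran from 1.37 to 1.74 TPM, Clec3b from 5.05 to 7.91 TPM and Fap from 2.71 to 5.01 TPM. Pdgfrb ran from 15.1 to 24.7 TPM, and these ranges are much narrower than those of Col1a1, Col1a2 and Col3a1. The remaining markers were relatively more uneven than these, with Dpt at 0.148 to 0.771 TPM, Col14a1 at 0.796 to 3.05 TPM and Cthrc1 at 16.9 to 38.1 TPM. Col1a1 was at 15.1 TPM in J17B and 23.4 TPM in J20B, beside 169 to 206 TPM in the other vehicle mice. By contrast Gfap, raised in reactive astrocytes, was at 1589 TPM in J17B and 2085 TPM in J20B, within or near the 1593 to 2437 TPM of the other 3, and sham mice did not exceed 121.7 TPM. Cd68, a gene of phagocytes, was at 209 and 294 TPM in the pair, 302 to 321 TPM in the other 3, and at most 17.8 TPM in sham. Snap25, a gene of neurons, was at 2033 and 1698 TPM in the pair, 1599 to 1755 TPM in the other 3 and 2775 to 2976 TPM in sham. Smooth muscle and pericyte markers summed to 146 and 169.8 TPM in the pair and 194 to 241 TPM in the other 3. Meningeal markers summed to 253 and 272 TPM against 284 to 296 TPM, and skeletal muscle markers to 14.8 and 12.4 TPM against 13.5 to 13.9 TPM. The part of these cells in the results was not tested.

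The label of fibroblast genes was not tested by the 10 fibroblast markers, which were measured at unequal levels. Col1a1, Col1a2 and Col3a1 reached 525, 549 and 351 TPM. Dpt and Pi16, which mark fibroblasts in many tissues, were the lowest and reached only 1.06 and 1.75 TPM in any library. Over all libraries the lowest value was 4.23 TPM for Clec3b, 13.79 TPM for Pdgfrb and 15.02 TPM for Cthrc1. Fap ran from 2.40 to 5.40 TPM and Col14a1 from 0.763 to 6.23 TPM. None of the 10 fibroblast markers is among the 10 genes. Bone markers were uneven as well. Bglap (osteocalcin) was at 23.7 TPM in Anakinra mouse J05 and 21.1 TPM in PLX3397+Anakinra mouse J04. In the vehicle mice Bglap was at 0 TPM. Bone and cartilage markers summed to 83.2 TPM in J05 and 64.4 TPM in J04, to 32.4 to 83.2 TPM over Anakinra mice and to 23.9 to 33.4 TPM over vehicle mice. Every PLX3397+Anakinra mouse, at 37.9 to 64.4 TPM, was above every vehicle mouse, and PLX3397 mice held 29.1 to 40.0 TPM. Sham mice held 26.0 to 30.0 TPM, with Bglap at up to 2.53 TPM. The summed list includes Col10a1, which ran from 0.173 to 8.37 TPM over vehicle mice. Its mean was 4.02 TPM with vehicle and 8.95 TPM with both drugs. Between these 2 groups Sp7 (2.46 and 2.66 TPM) and Phex (0.864 and 0.896 TPM) differed little. Runx2 (2.77 and 3.64 TPM), Alpl (7.28 and 8.80 TPM) and Acan (2.60 and 3.43 TPM) had higher means with both drugs. So did Dmp1 (5.39 and 6.22 TPM) and Bglap2 (0.362 and 2.18 TPM), whereas Col2a1 was lower (2.97 and 2.63 TPM). In sham mice Runx2 was at 4.08 TPM and Alpl at 9.08 TPM. Ibsp (bone sialoprotein) was at 0.467 to 3.80 TPM with both drugs and at most 0.352 TPM with vehicle. The part of bone in the levels of the 10 genes was not tested. Microglia and macrophage markers summed to 723 to 1012 TPM with vehicle, 330 to 508 TPM with PLX3397, 799 to 933 TPM with Anakinra and 282 to 360 TPM with both.

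**Figure D5:**
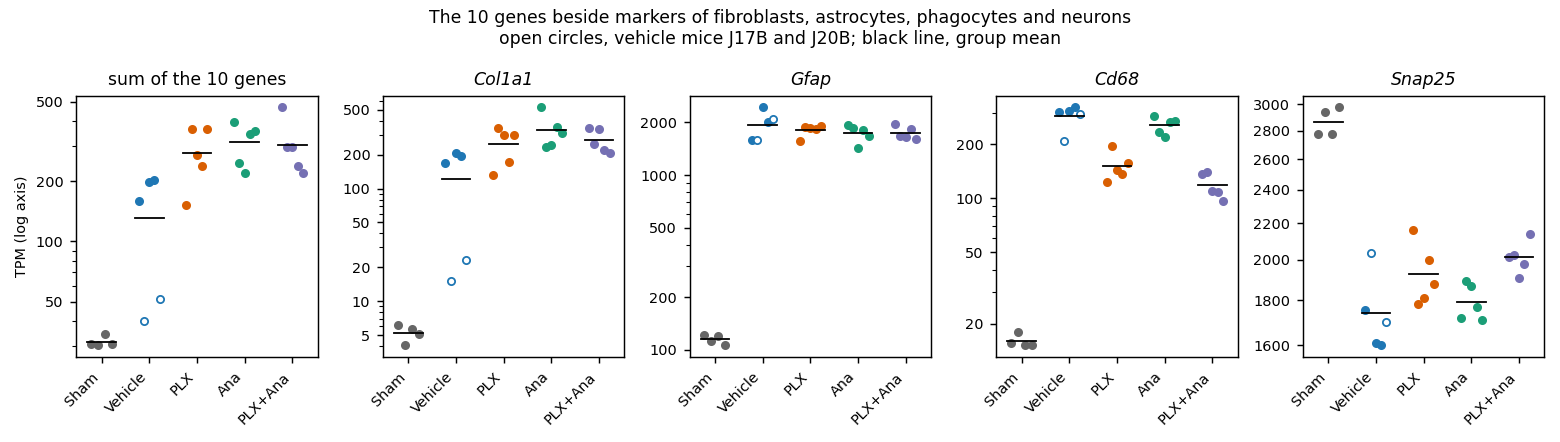
Sum of the 10 genes beside Col1a1 (fibroblasts), Gfap (astrocytes), Cd68 (phagocytes) and Snap25 (neurons) in 24 mice (TPM, log axis), with 1 point per mouse, black lines at group means and open circles for J17B and J20B. The open circles lie near sham for the sum of the genes and for Col1a1, and among the other mice with TBI for Gfap.

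The rest of the matrix machinery was examined in 5 lists with 68 further genes, of which 64 passed the filter. In vehicle versus sham 47 of 64 rose and 4 fell, beside 54.3% of all genes tested that changed in either direction and 26.6% that rose. Without J17B and J20B 52 rose and 3 fell, beside 52.2% of all genes that changed and 25.6% that rose. The counts by list that follow are with all vehicle mice unless stated. Elastic fiber genes rose in 14 of 16 cases, among them Emilin1 and Efemp2, and fell in 2. Matricellular genes rose in 13 of 17, with Thbs1 from 1.88 to 32.7 TPM and Thbs4 from 8.74 to 36.9 TPM. Collagen-processing enzymes rose in 14 of 20 (18 without the pair), with Plod1, a lysyl hydroxylase, from 22.2 to 62.4 TPM. Of the other proteoglycans 4 of 9 rose, led by Bgn and Dcn (decorin), and Podn fell. Without the pair 5 of these rose and 0 fell.

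Of the remaining lysyl oxidases, Loxl1, which acts on elastin, and Loxl3 rose after injury and Loxl4 stayed below the filter. Loxl1 was at 2.20 TPM in sham and 9.32 TPM in vehicle mice (mean, log2 fold change 1.59 ± 0.23, limma adjusted p = 3.27e-06). Loxl3 was at 3.34 and 9.33 TPM (1.23 ± 0.13, limma adjusted p = 2.56e-08). Loxl1 was higher with PLX3397 (14.98 TPM, limma adjusted p = 0.0482) and with the combination (15.9 TPM, adjusted p = 0.014), and at 16.8 TPM with Anakinra (adjusted p = 0.0968). Without J17B and J20B these p-values were 0.468, 0.215 and 0.421.

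In the drug comparisons with vehicle, these further genes were not uniform. With PLX3397 9 of 64 rose and 2 fell, beside 9.89% of all genes that changed. Without J17B and J20B 2 rose and 7 fell, beside 11.3%. With PLX3397+Anakinra 17 rose and 4 fell, beside 17.5%, and without the pair 3 rose and 8 fell, beside 17.6%. With Anakinra 0 of 64 passed limma's adjusted threshold, with or without the pair, where 0.116% and 0.0869% of all genes did. At an unadjusted p below 0.05 it was 39 of 64 with Anakinra, 30 with PLX3397 and 36 with both, beside 12.4%, 22.8% and 29.7% of all genes. Without the pair it was 13, 17 and 18 of 64, beside 9.96%, 23.7% and 29.8%.

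Epyc (epiphycan), a proteoglycan of cartilage, rose with PLX3397 and with the combination in either case. It was at 1.64 TPM with vehicle, 4.90 TPM with PLX3397 (log2 fold change 1.15 ± 0.20, limma adjusted p = 0.000336) and 5.02 TPM with both (adjusted p = 0.000107). Nov, a matricellular gene of the CCN family, rose from 60.2 TPM to 73.7 TPM with PLX3397 and 75.3 TPM with both (limma adjusted p = 0.0239 and 0.00696), after a fall from sham to vehicle. Plod1 fell from 62.4 TPM to 46.6 TPM with PLX3397 (log2 fold change -0.41 ± 0.09, limma adjusted p = 0.00444) and to 44.3 TPM with both (-0.48 ± 0.09, adjusted p = 0.000581). Tgfbi, which macrophages also make, passed with the combination with all vehicle mice (log2 fold change -0.52, limma adjusted p = 0.0459) but not with PLX3397 (-0.37, adjusted p = 0.218). Without the pair Tgfbi had -0.72 ± 0.15 with PLX3397 and -0.87 ± 0.15 with both on the log2 scale (limma adjusted p = 0.0021 and 0.000194). Smoc2, Dcn, Fmod and Ltbp2 passed upward with PLX3397 with all 5 vehicle mice, and none of these did without the pair.

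Drug against drug, 0 of the 64 genes passed in limma between the combination and PLX3397, and 2 had an unadjusted p below 0.05, beside 6.71% of all genes. Against Anakinra the combination had 1 gene higher (Nov) and 5 lower (Plod1, Plod3, Tgm2, Tgfbi and Emilin2). These 6 of 64 are a smaller share than the 12.8% of all genes that passed, so nothing is read from the count about matrix genes. Tgfbi was at 21.96 TPM with both drugs and 38.5 TPM with Anakinra (log2 fold change -0.78 ± 0.18, limma adjusted p = 0.00399). Plod1, Plod3 and Tgfbi were also higher with Anakinra than with PLX3397, the 3 of 64 genes that passed there, beside 6.69% of all genes. Microglia and macrophage markers were lower in the groups with PLX3397 too, as given above, and their part in these differences was not tested.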

How the data were processed

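Total RNA of 24 brain samples was sequenced from polyA-selected libraries by the study's authors, who mapped the reads to the mouse genome (GRCm38 per the labels) in CLC Genomics Workbench and deposited TPM (transcripts per 1000000) for 36333 genes. TPM adds up to 1000000 in each library, so depth is unknown and no interval for counting error can be given. A deposited table of TPM rounded by the authors served as an alternative, and a deposited table with p-values and F values of the authors' own tests was not used.

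The 17267 genes that averaged 0.5 TPM or more were tested on log2(TPM + 1) with limma 3.58.1 in R 4.3.3, with 1 mean per group over 24 libraries, a trend in the prior variance and Benjamini-Hochberg adjustment. A gene passed at an adjusted p below 0.05. The script was tested on simulated data. RefSeq promoters of 1 chromosome were left out. Tables and plots were made with Python 3.11.15, pandas 2.3.3 and matplotlib 3.10.9. Groups came from the labels, which give no batch, and each library is a separate mouse.

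The 10 genes, the gene lists and the comparisons were chosen with earlier results of these data known. Named further genes were the up to 4 of a list with the smallest adjusted p in a comparison, Loxl1, Loxl3 and Loxl4, the marker genes, and the 8 genes most like the 10. Alternatives were a pseudocount of 0.1 TPM, other filters, rescaling by median ratios, only the compared groups, and leaving out each mouse. Leaving out J17B and J20B together was added after seeing the data.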

Additional observations from a re-analysis of the deposited data

Results flagged for a closer look

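In 3 of 50 combinations of gene and group, 1 mouse stood far from the rest of its group relative to the group's range, and chance alone would give about 1 in 20. All 3 were in the PLX3397+Anakinra group. Aspn was at 14.2 TPM in J03 and Mfap4 at 51.4 TPM in J03, the mouse with the highest sum of the 10 genes. Loxl2 was at 14.6 TPM in J04, where the other mice of the group were at 8.70 to 9.95 TPM. These values are single libraries, and their cause was not tested.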

How the results depend on the processing

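With Lox and Lrrc17 included, the number of the 10 genes that passed for vehicle versus sham was 9 or 10 under all alternatives. It was 10 without J20B, without J17B and J20B, with a pseudocount of 0.1 TPM and with only the compared groups, and Aspn was the gene that crossed the threshold. Lox and Lrrc17 passed the filter through the injured groups, so their part of this count carries no test. Of the other 8 genes, 7 passed with all vehicle mice and 8 without J17B and J20B. Between drug groups the number of the 10 genes that passed was 0 under all alternatives. Leaving out 1 mouse at a time, the median log2 fold change of the 10 genes ran from 0.90 to 1.44 for PLX3397, 1.02 to 1.49 for Anakinra and 1.01 to 1.42 for PLX3397+Anakinra versus vehicle, lowest without J17B in each. Among the other matrix genes, PLX3397 versus vehicle called 11, but 7 with no filter, 5 with only the compared groups and 6 to 17 with 1 mouse left out, lowest without J12 and highest without J01. PLX3397+Anakinra versus vehicle called 21, but 7 with only the compared groups, 11 without J17B and J20B and 10 to 22 with 1 mouse left out, lowest without J20B. Anakinra versus vehicle called 0, and 0 to 5 with 1 mouse left out, highest without J19B. PLX3397+Anakinra versus Anakinra called 6, but 3 with no filter and 3 to 5 with 1 mouse left out, lowest without J05 or J04. Anakinra versus PLX3397 called 3, and 1 to 4 with 1 mouse left out. The cause was not tested.

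Of the 30 differences between drug groups, 23 changed sign with 1 mouse left out. The 7 that did not were those of Eln for PLX3397+Anakinra versus PLX3397 (0.14 to 0.47), of Fbn1, Lox and Loxl2 for PLX3397+Anakinra versus Anakinra (-0.48 to -0.15) and of Eln, Fbn1 and Loxl2 for Anakinra versus PLX3397 (0.17 to 0.58). For PLX3397+Anakinra versus PLX3397 the log2 fold change then ran from -0.16 to 0.22 for Postn, -0.12 to 0.22 for Thbs2, -0.29 to 0.17 for Lum, -0.060 to 0.41 for Aspn, -0.079 to 0.14 for Fbn1, -0.19 to 0.20 for Mfap4, -0.26 to 0.10 for Lox, -0.20 to 0.071 for Loxl2 and -0.036 to 0.46 for Lrrc17. For PLX3397+Anakinra versus Anakinra it ran from -0.16 to 0.17 for Postn, -0.22 to 0.041 for Thbs2, -0.24 to 0.076 for Lum, -0.18 to 0.12 for Aspn, -0.28 to 0.052 for Eln, -0.0061 to 0.30 for Mfap4 and -0.067 to 0.22 for Lrrc17, and Aspn was at -0.0031 after median-ratio rescaling. For Anakinra versus PLX3397 it ran from -0.21 to 0.17 for Postn, -0.045 to 0.29 for Thbs2, -0.24 to 0.22 for Lum, -0.081 to 0.39 for Aspn, -0.39 to 0.0061 for Mfap4, -0.049 to 0.32 for Lox and -0.13 to 0.37 for Lrrc17.

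Some animal codes of vehicle mice share digits with those of a drug group. The deviations from the group means correlated at 0.173, -0.134 and -0.0656 for J01B and J01, J19B and J19, and J20B and J20 (PLX3397), and at 0.318 for J17B and J17 (PLX3397+Anakinra). Not every pair was above 0.1, so shared digits were not taken to pair the mice. A fit of only the vehicle and PLX3397 mice, with a replicate block on shared digits, called 703 genes for PLX3397 versus vehicle. The fit of all 24 libraries without a block called 1707. Mice without a partner do not inform the blocked fit, which also has fewer libraries, so the effect of the block alone cannot be read from these counts.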
